A study of Mus musculus with 9 samples.

Results

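Integrins and tetraspanins are cell-surface proteins through which cells hold on to matrix and to each other, and they are among the proteins studied in the docking and uptake of extracellular vesicles. The genes described here were chosen by name: every integrin alpha or beta chain gene, every gene named Tspan with a number, and Cd9, Cd37, Cd53, Cd63, Cd81, Cd82 and Cd151, with the platelet chains Itga2b and Itgb3 and the integrin-binding proteins left out. The name pattern also takes in Itgbl1, whose product resembles the extracellular stalk of an integrin beta chain but is not a receptor chain. The rule found 44 genes, 21 with integrin names and 23 tetraspanins, among 12393 genes with a named probe set.

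RNA was measured on single-colour Affymetrix arrays of whole lung from C57BL/6 mice. Lungs were taken 24 h or 48 h after tail-vein injection of exosomes (10 µg by protein) released by the melanoma line B16-F10, which forms lung metastases in mice, and control lungs were measured beside them. The treatment, age and sex of the control mice were not stated in the labels, nor were the age and sex of the injected mice. Each of the 3 groups has 3 arrays, which the labels call biological replicates. The labels speak of 3 mice for each time and of triplicate experiments, and do not say whether an array is 1 mouse or a pool, so every p-value measures the spread between these arrays. In whole tissue, fewer cells of a type and less RNA per cell cannot be told apart.

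The lung label was borne out by its markers: 6 of 6 measured alveolar type 2 genes, 5 of 5 alveolar type 1 genes and 8 of 8 endothelial genes were detected on all 9 arrays. Of 4 measured melanocyte genes 0 were detected on all 9 arrays, and Tyrp1, Dct and Pmel were detected on 0. The 3 arrays numbered replicate 1, 1 in each group, stood apart from the other 6. The authors' series value table holds the same arrays under other labels, with the control columns equal to the 48 h sample files, the 24 h columns equal to the control files with numbers 1 and 2 exchanged, and the 48 h columns equal to the 24 h files, apart from 273 probe sets of the column numbered 2. The sample files, whose inner names match their labels, were used here, but which labelling is right could not be settled. If the table's is right, each comparison between groups sets other arrays against each other than its name says. In each comparison between groups, 0 members passed the test, and also 0 without the arrays numbered replicate 1. The count was 0 under the table's labels too. Those labels rename whole groups, so apart from the 273 probe sets they repeat the same comparisons and add no support.

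An integrin is a dimer of an alpha and a beta chain, and the pairing sets the ligand. Itga3, Itga6 and Itga7 with Itgb1, or Itga6 with Itgb4, bind laminins. Itga5, Itga8 and Itgav bind proteins with an RGD motif, such as fibronectin and vitronectin. Several of the leukocyte chains that pair with Itgb2 or Itgb7 bind cell-surface ligands, some of them on endothelium. Tetraspanins are small membrane-spanning proteins that gather integrins, proteases and other partners into membrane domains; Cd9, Cd63, Cd81, Cd82 and Cd151 are abundant on exosomes and are used as their markers. In lung, integrins anchor the alveolar epithelium to its basement membrane, activate latent transforming growth factor beta and bring leukocytes into the tissue.

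Of the 44 genes, 38 were tested, 16 with integrin names and 22 tetraspanins, having passed a filter that asked for a detection p under 0.05 throughout 1 or more groups; all 38 were detected on all 9 arrays. The 6 others had signals near background. Itgb4, the laminin-binding partner of Itga6, had linear signals of 48.5 to 107.9 units and was detected on 0 arrays. Itga4, the chain that binds Vcam1, was detected on 0 arrays with all 3 of its probe sets, the brightest of which gave 41.2 to 67.7 units. Itgal, the alpha chain of the lymphocyte integrin LFA-1, gave 34.5 to 77.6 units on 0 detected arrays, and the collagen-binding Itga2 gave 10.7 to 39.3 units on 0. Tspan10 was also detected on 0 arrays. Itgb2l, a close relative of Itgb2, was detected on 4 of 9 arrays at 15 to 53.1 units. No level is claimed for these genes. Brightness alone did not set them apart from every tested gene. Itgam and Itgae, detected on all 9 arrays, had mean log2 intensities of 6.20 and 6.31, where Itgb4 had 6.46 and Itgal 6.21. The exosome marker Cd63 had no listed probe set, nor had Itga1, Itga10, Itga11, Itgad, Itgb8, Tspan7, Tspan11 and Tspan18, and these 9 genes were not analysed here.

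At neither time did an integrin or tetraspanin gene pass the test. In 24 h against control 0 of the 38 members passed (limma, Benjamini-Hochberg adjusted p under 0.05), where 0% of the 9281 tested genes did, and 0 members had an unadjusted p under 0.05, where 1.07% of all genes did. In 48 h against control the counts were again 0 of 38 at 0% of all genes, and 0 unadjusted at 1.29%. In 48 h against 24 h they were 0 at 0%, and 0 unadjusted at 1.49%. With the replicate number as a block, 0, 1 and 1 members had an unadjusted p under 0.05 in these comparisons, where 2.92%, 4.15% and 4.87% of all genes did, and again 0 passed. The first pair of comparisons share the control arrays.

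The members' differences were small and spread on both sides of 0. At 24 h the log2 changes ran from -0.22 to 0.26 with a median of 0.0035 and 20 members higher, where the median of all genes was 0.0020. At 48 h they ran from -0.35 to 0.34 with a median of -0.0067 and 19 members higher, against -0.0053 over all genes. From 24 h to 48 h they ran from -0.34 to 0.42 with a median of 0.010 and 21 members higher, against -0.0072. The 95% interval of the fold lay within 1.5-fold of no change, in both directions, for 27 of 38 members in each of these comparisons, and within 2-fold for 38 at 24 h and 36 in the others. With the replicate number as a block the intervals were narrower, lying within 1.5-fold for 35 members at 24 h, 35 at 48 h and 34 between the times, and within 2-fold for all 38 in each.

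**Figure D1:**
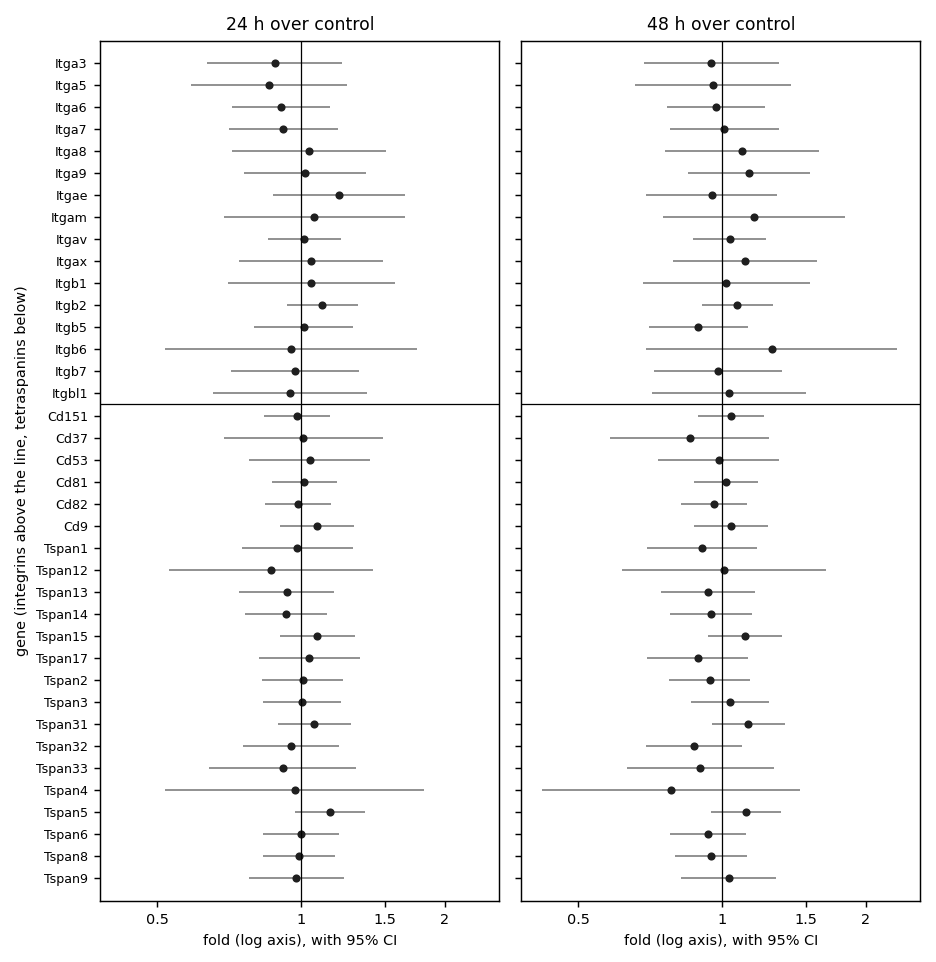
Fold of each of the 38 tested genes at 24 h over control (left) and 48 h over control (right), on a log axis. Points are limma estimates from 3 arrays a group and lines their 95% confidence intervals; every interval crosses 1, and the widest are those of Itgb6 and Tspan4.

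Among the laminin-binding alpha chains, Itga6 and Itga3 serve epithelial and endothelial basement membranes and Itga7 serves muscle. Itga6 gave log2 intensities of 11.24, 11.06 and 10.83 in control (replicates 1, 2 and 3, an order kept below), 11.08, 10.80 and 10.83 at 24 h, and 11.22, 10.80 and 10.98 at 48 h. Its groups overlapped, with the replicate 1 array the brightest of each. The fold was 0.906 at 24 h (95% CI 0.715 to 1.15) and 0.970 at 48 h (0.765 to 1.23). Itga3 had a fold of 0.879 at 24 h (0.635 to 1.22) and Itga7 of 0.917 (0.705 to 1.19). All 3 chains were thus numerically below control at 24 h without passing the test, and at 48 h their log2 changes were -0.07 for Itga3, -0.04 for Itga6 and 0.02 for Itga7.

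The RGD-binding chains include Itga5, the fibronectin receptor chain, and Itgav, which pairs with Itgb5 and Itgb6 among others and is a route to vitronectin and to latent transforming growth factor beta. Itgav gave 11.21, 11.11 and 11.13 in control, 11.20, 11.001 and 11.31 at 24 h, and 11.17, 11.13 and 11.30 at 48 h on the log2 intensity scale. These groups overlapped almost wholly, and the folds were 1.02 (0.851 to 1.21) at 24 h and 1.04 (0.868 to 1.24) at 48 h. Itga5 had a fold of 0.856 (0.587 to 1.25) at 24 h and 0.956 (0.656 to 1.39) at 48 h. Itga8, which marks alveolar fibroblasts and smooth muscle, had folds of 1.04 and 1.10.

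The beta partners of Itgav differed in how tightly they were measured. Itgb5 had log2 intensities of 10.70, 10.81 and 10.67 in control, 10.76, 10.95 and 10.53 at 24 h, and 10.44, 10.86 and 10.39 at 48 h. At 48 h replicates 1 and 3 lay below every control array and replicate 2 above them, and the fold was 0.892 (0.702 to 1.13). The epithelial chain Itgb6 had the largest change upward at 48 h, with 7.68, 7.02 and 6.79 in control, 7.97, 6.28 and 7.03 at 24 h, and 7.68, 7.13 and 7.71 at 48 h. Its arrays overlapped between groups and spanned over a log2 unit within the 24 h group, so the fold of 1.27 at 48 h came with an interval from 0.693 to 2.33. The fold from 24 h to 48 h was 1.33 (0.728 to 2.45). The second tested probe set of Itgb6 gave a log2 change of 0.01 at 48 h against control, where the first gave 0.34.

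Itgb1, the beta chain shared by most matrix integrins, gave log2 intensities of 10.19, 10.59 and 10.90 in control, 10.26, 10.74 and 10.89 at 24 h, and 10.10, 10.74 and 10.93 at 48 h. In every group replicate 1 was the lowest and replicate 3 the highest, at almost the same levels. The folds were 1.05 (0.702 to 1.57) at 24 h and 1.02 (0.683 to 1.52) at 48 h. With the replicate number as a block the same folds had narrower intervals, 0.915 to 1.20 at 24 h and 0.890 to 1.17 at 48 h. Itga9, a chain for tenascin and Vcam1 that pairs with Itgb1, had folds of 1.02 and 1.14 (0.847 to 1.53). The other tested probe set of Itga9 gave a log2 change of -0.32 at 24 h, where the first gave 0.03. At 48 h they gave 0.17 and 0.19, and from 24 h to 48 h 0.50 and 0.16.

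The leukocyte integrins that were detected comprise Itgam and Itgax, which pair with Itgb2 on myeloid cells and, for Itgax, on alveolar macrophages and dendritic cells, and Itgae, which pairs with Itgb7 on intraepithelial T cells and some dendritic cells. Itgb2 gave log2 intensities of 10.50, 10.50 and 10.68 in control, 10.76, 10.65 and 10.71 at 24 h, and 10.79, 10.52 and 10.68 at 48 h. It was higher than the control array of the same number in all 3 numbers at 24 h, by a fold of 1.11 (0.932 to 1.32), but the groups overlapped. At 48 h its fold was 1.08 (0.906 to 1.28). Itgae had the largest change upward at 24 h among the members, a fold of 1.20 (0.874 to 1.65), at a dim mean log2 intensity of 6.31. From 24 h to 48 h its fold was 0.792 (0.577 to 1.09). Itgb7 stayed near control at 0.971 (0.714 to 1.32) and 0.981 (0.722 to 1.33).

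Itgam gave log2 intensities of 6.37, 5.81 and 6.10 in control, 6.23, 6.13 and 6.20 at 24 h, and 7.06, 5.81 and 6.07 at 48 h. Most of these levels were as dim as those of the untested Itgal. A single array, 48 h replicate 1, lay far above the rest, and the fold of 1.17 at 48 h had an interval from 0.753 to 1.80. On that array the summed signal of the neutrophil marker list was also the highest of the series, at 25923 units, where control arrays had 9657 to 14009. Of the 6 neutrophil genes measured, 5 were detected on all 9 arrays, and the part of neutrophils in the Itgam value was not tested. Itgax had folds of 1.05 (0.741 to 1.48) and 1.12 (0.791 to 1.58).

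The exosome-marker tetraspanins were narrowly measured. Cd9, a tetraspanin of epithelium and platelets, gave log2 intensities of 12.41, 12.34 and 12.58 in control, 12.47, 12.57 and 12.62 at 24 h, and 12.61, 12.37 and 12.53 at 48 h. Cd81, a widely expressed tetraspanin, gave 12.27, 12.22 and 12.22, then 12.32, 12.17 and 12.29, then 12.35, 12.23 and 12.21. Both genes overlapped between all groups. Cd9 had a fold of 1.08 (0.902 to 1.29) at 24 h and 1.04 (0.873 to 1.25) at 48 h, and Cd81 of 1.02 (0.870 to 1.19) and 1.02 (0.873 to 1.19).

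Cd82, known as a suppressor of metastasis in tumour cells, had folds of 0.984 (0.840 to 1.15) and 0.961 (0.821 to 1.13). Cd151, a partner of the laminin-binding integrins, had folds of 0.979 (0.834 to 1.15) and 1.04 (0.890 to 1.23). For all 4 of these genes the intervals in the 3 comparisons between groups lay within 1.5-fold of no change. Tspan8, a tetraspanin of epithelial and tumour exosomes, gave 11.63, 11.77 and 11.88 in control and 11.67, 11.69 and 11.69 at 48 h, with a fold of 0.947 (0.797 to 1.13).

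The leukocyte tetraspanins comprise Cd37, which is most abundant on B cells, the pan-leukocyte Cd53, and Tspan32 of haematopoietic cells. Cd37 gave log2 intensities of 8.05, 8.84 and 8.93 in control, 8.36, 8.85 and 8.66 at 24 h, and 8.06, 8.65 and 8.43 at 48 h. The groups overlapped, with the replicate 1 array the lowest of each, and the fold at 48 h was 0.856 (0.583 to 1.26). The second tested probe set of Cd37 went the other way at 48 h, with a log2 change of 0.06 where the first gave -0.22. From 24 h to 48 h they gave 0.11 and -0.24. Tspan32 had a fold of 0.872 (0.692 to 1.10) and Cd53 of 0.983 (0.734 to 1.32) at 48 h. At 24 h the folds of these genes were 1.01 for Cd37, 0.952 for Tspan32 and 1.04 for Cd53. In 48 h against control the 9 tested B cell markers had a median log2 change of -0.33, 0 of them passed, and their summed signal was 2441 to 3845 units where control had 3222 to 4882. The part of B cell number in these values was not tested.

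The TspanC8 tetraspanins escort the protease Adam10 to the cell surface; those tested were Tspan5, Tspan14, Tspan15, Tspan17 and Tspan33. Tspan5 gave log2 intensities of 8.52, 8.56 and 8.40 in control, 8.70, 8.59 and 8.79 at 24 h, and 8.78, 8.60 and 8.59 at 48 h. By the sample files' labels, all 6 arrays after exosomes lay above all 3 control arrays. The fold was 1.15 at 24 h (0.969 to 1.36; limma adjusted p = 0.9996) and 1.12 at 48 h (0.946 to 1.33; limma adjusted p = 0.9998), so neither passed. Its second tested probe set gave log2 changes of -0.04 and -0.07.

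Tspan5 was the only member whose arrays did not overlap with control at 24 h, 1 of 38, where 3.92% of all tested genes had groups that did not overlap. At 48 h there were 3, all higher, namely Tspan5, Tspan15 and Tspan31, where 4.39% of all genes had none in common. Tspan15 gave 9.79, 9.69 and 9.75 in control and 9.93, 9.94 and 9.84 at 48 h, a fold of 1.12 (0.932 to 1.33). Tspan31, a tetraspanin first known from its amplification in sarcoma, gave 11.24, 11.16 and 11.20 in control and 11.53, 11.32 and 11.30 at 48 h, a fold of 1.13 (0.951 to 1.35). The gaps between the groups were a few hundredths of a log2 unit for each. Between 24 h and 48 h the groups of 0 members failed to overlap, at 4.41% of all genes.

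Of the remaining TspanC8 genes, Tspan17 had folds of 1.04 at 24 h, 0.889 (0.697 to 1.13) at 48 h and 0.855 (0.670 to 1.09) between them. Tspan14 had folds of 0.929 (0.763 to 1.13) and 0.949 at the same times against control. Tspan4, which is not a TspanC8 gene, had the largest change downward at 48 h among all members. Its log2 intensities were 10.31, 11.26 and 11.02 in control, 9.97, 11.45 and 11.03 at 24 h, and 9.96, 11.001 and 10.56 at 48 h. Its groups overlapped widely, yet each 48 h array lay below the control array of its own number, by 0.35, 0.26 and 0.46 log2 units. The fold was 0.782 with an interval from 0.420 to 1.46. With the replicate number as a block the same fold had an interval of 0.646 to 0.947 and a limma p of 0.0183, but an adjusted p of 0.998.

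The remaining tetraspanins were measured without a clear difference. Tspan12, which assists the Norrin receptor on endothelium, gave log2 intensities of 10.24, 9.70 and 9.39 in control, 10.05, 9.07 and 9.58 at 24 h, and 10.00, 9.22 and 10.14 at 48 h. Its groups overlapped, with folds of 0.865 (0.529 to 1.41) and 1.01 (0.617 to 1.65). Tspan33, a TspanC8 member of B cells and other blood cells, had folds of 0.915 (0.642 to 1.30) and 0.900 (0.632 to 1.28). The folds of Tspan1, Tspan2, Tspan3, Tspan6, Tspan9 and Tspan13 lay between 0.932 and 1.01 at 24 h and between 0.908 and 1.04 at 48 h, and none passed.

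From 24 h to 48 h the members with the highest moderated t after Itgb6 were Cd151, with a fold of 1.07 (0.908 to 1.25), Itga7 with 1.10 (0.849 to 1.43), Itga9 with 1.12 (0.831 to 1.50) and Tspan31 with 1.06 (0.892 to 1.27). Those with the lowest, after Itgae and Tspan17, were Itgb5 with 0.881 (0.694 to 1.12), Cd37 with 0.847 (0.577 to 1.24) and Tspan32 with 0.915 (0.727 to 1.15). None passed. Folds of the other well-known chains were 1.12 for Itga5, 1.07 for Itga6, 1.02 for Itgav, 0.972 for Itgb1 and Itgb2, 1.09 for Itgam, 1.07 for Itgax and 1.01 for Itgb7. Among tetraspanins they were 0.967 for Cd9, 1.00 for Cd81, 0.977 for Cd82, 0.944 for Cd53 and 0.960 for Tspan8.

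Direction was also compared within each replicate number. At 24 h 5 of 38 members differed from control with the same sign in all 3 numbers, which is 13.2% of them, where 21.6% of all genes did. At 48 h there were 9, at 23.9% of all genes, and between the times 10, at 27.9%.

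**Figure D2:**
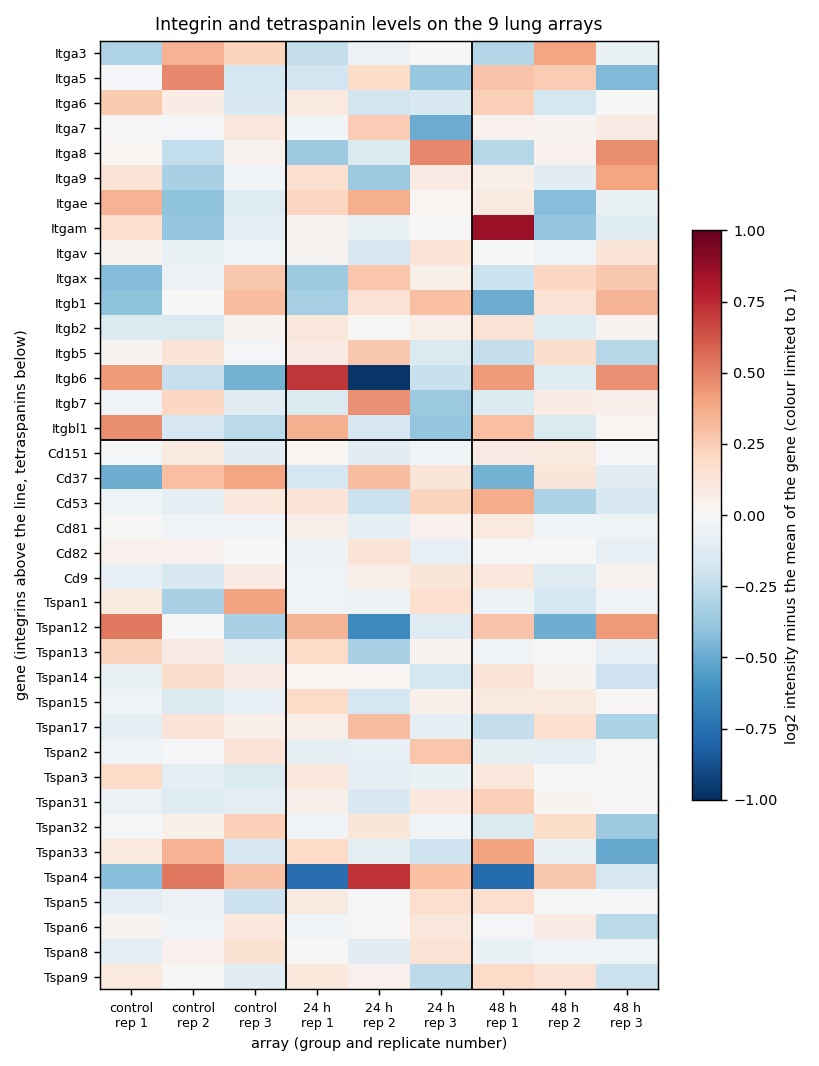
Log2 intensity of the 38 tested genes on the 9 arrays, each gene shown as its difference from its own mean; colour is limited to 1 log2 unit in either direction. Columns run by group and replicate number, and in Itgb1, Itgax, Cd37 and Tspan4 the replicate 1 column of all 3 groups is low, while in Itgbl1 it is high.

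The larger differences among these genes ran between replicate numbers. With each gene's spread over the 9 arrays divided into group, replicate number and the rest, group and replicate number having 2 degrees of freedom each, replicate number held a median of 59.3% of the members' sum of squares and group 11.6%. Over all genes the medians were 52.2% and 11.6%. Replicate number held over 50% in 25 of 38 members, which is 65.8%, where 52.5% of all genes did. The share was highest in Itgb1, at 96.7%, followed by Tspan4 at 86.6% and Itgbl1 at 86.2%. The group share was above 50% only in Tspan5, at 55.1%, which is 2.63% of the members, where 4.65% of all genes had such a share. It exceeded that of replicate number in 6 of 38 members, where it did so in 1875 of 9281 genes.

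**Figure D3:**
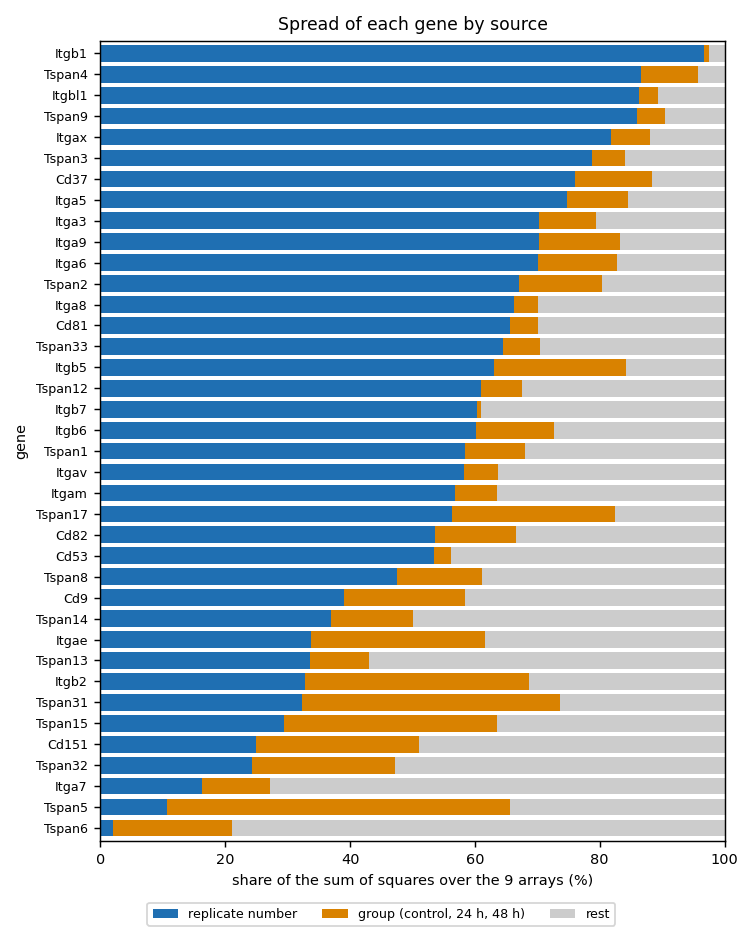
Share of each gene's sum of squares over the 9 arrays that goes with replicate number, with group and with neither, in percent; bars add to 100. Replicate number takes 96.7% in Itgb1, and group takes the most in Tspan5, at 55.1%.

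The labels do not say what the replicate number stands for. Setting the 3 arrays numbered replicate 1 against the 6 others, with group in the model, 8 of 38 members passed (limma, Benjamini-Hochberg adjusted p under 0.05), where 18.8% of all genes did. The count was 3 without control replicate 1, 4 without 24 h replicate 1, 5 without control replicate 3, 24 h replicate 3 or 48 h replicate 2, and 0 with the series table's labels. Of the 8, 3 were higher, at 8.57% of all genes higher, and 5 lower, at 10.2%. The members' share, 21.1%, is near that of all genes. The median log2 change was 0.04 in the members and -0.02 in all genes. That these arrays stand apart was known when the comparison was set.

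The strongest was Tspan4, a tetraspanin of migrasomes and of integrin-rich membranes. Its log2 intensities on the replicate 1 arrays were 10.31, 9.97 and 9.96 (control, 24 h and 48 h), and the lowest of the other 6 arrays was 10.56. The fold was 0.508 (95% CI 0.431 to 0.600; limma adjusted p = 0.00318). Itgb1 lay between 10.10 and 10.26 on the replicate 1 arrays and between 10.59 and 10.93 on the others. Its fold was 0.653 (0.580 to 0.735; limma adjusted p = 0.00406), and a second probe set gave a log2 change of -0.63 where the first gave -0.62. A further probe set of Itgb1 gave -0.19 and did not pass. For both genes the arrays of the 2 sets did not overlap.

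The stretches just before the transcription starts of these genes and of Itgb6, the called member with the largest fold upward, are shown because they were the extremes of the comparison. They are RefSeq sequences of assembly GRCm38.p6, read on the gene's strand and ending at the base before the start that lies farthest upstream. Capitals mark the GC box GGGCGG or its reverse complement CCGCCC, the letters searched on both strands. For Tspan4 only the bases between its start and its neighbour Polr2l are printed.
Tspan4, chr7:141475154-141475235, plus strand: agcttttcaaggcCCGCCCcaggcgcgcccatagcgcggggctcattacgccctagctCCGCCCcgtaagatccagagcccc
Itgb1, chr8:128685404-128685653, plus strand: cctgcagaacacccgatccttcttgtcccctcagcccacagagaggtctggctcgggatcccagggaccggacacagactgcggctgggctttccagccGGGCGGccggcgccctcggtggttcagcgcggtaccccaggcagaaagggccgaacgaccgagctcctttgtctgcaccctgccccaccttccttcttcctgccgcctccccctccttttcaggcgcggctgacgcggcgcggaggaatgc
Itgb6, chr2:60722604-60722853, minus strand: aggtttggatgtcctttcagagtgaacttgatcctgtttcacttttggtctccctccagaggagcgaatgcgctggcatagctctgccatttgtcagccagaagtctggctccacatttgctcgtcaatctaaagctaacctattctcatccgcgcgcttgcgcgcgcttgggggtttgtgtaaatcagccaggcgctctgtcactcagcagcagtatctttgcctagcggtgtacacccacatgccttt

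The box occurred 2 times in the Tspan4 stretch, 1 time in that of Itgb1 and 0 times in that of Itgb6. In windows of 250 bases before the start it was present in 5 of the 7 called members that the table holds, in 19 of 34 tested members, and in 33% of 27025 genes. The 27025 genes were not limited to those detected in these lungs, as the members were, so the shares are not of like sets. A match describes the letters of the window and not a bound site.

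Cd37, low on the replicate 1 arrays at 8.05, 8.36 and 8.06 and between 8.43 and 8.93 on the others, had a fold of 0.674 (0.571 to 0.796; limma adjusted p = 0.0112). Its second probe set gave a log2 change of -0.23 and did not pass. Itgax, at 9.24, 9.32 and 9.46 against 9.62 to 9.95, had a fold of 0.703 (0.603 to 0.818; limma adjusted p = 0.0123). Itga3, at 10.19, 10.26 and 10.20 against 10.43 to 10.89, had a fold of 0.747 (0.628 to 0.888; limma adjusted p = 0.0322). In these genes too the replicate 1 arrays lay below all the others. Under 17 alternative settings Cd37 passed in 15, Itgax in 14 and Itga3 in 8.

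Itgbl1 was the most clearly raised, at 7.58, 7.47 and 7.41 on the replicate 1 arrays and 6.72 to 7.13 on the others, a fold of 1.47 (1.26 to 1.72; limma adjusted p = 0.00927). Itgb6 had the larger fold, 1.72 (1.22 to 2.43; limma adjusted p = 0.0391), but the 7.71 of 48 h replicate 3 lay above the lowest replicate 1 value of 7.68, so the sets overlapped. Itga6 had a fold of 1.23 (1.08 to 1.40; limma adjusted p = 0.0416), with 11.08 to 11.24 against 10.80 to 11.06. For both Itga6 and Itgb6 a second probe set moved in the same direction, by log2 changes of 0.81 and 0.70. Itga6 and Itgb6 passed in 8 of the 17 alternative settings each, and Itgbl1 in 14.

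**Figure D4:**
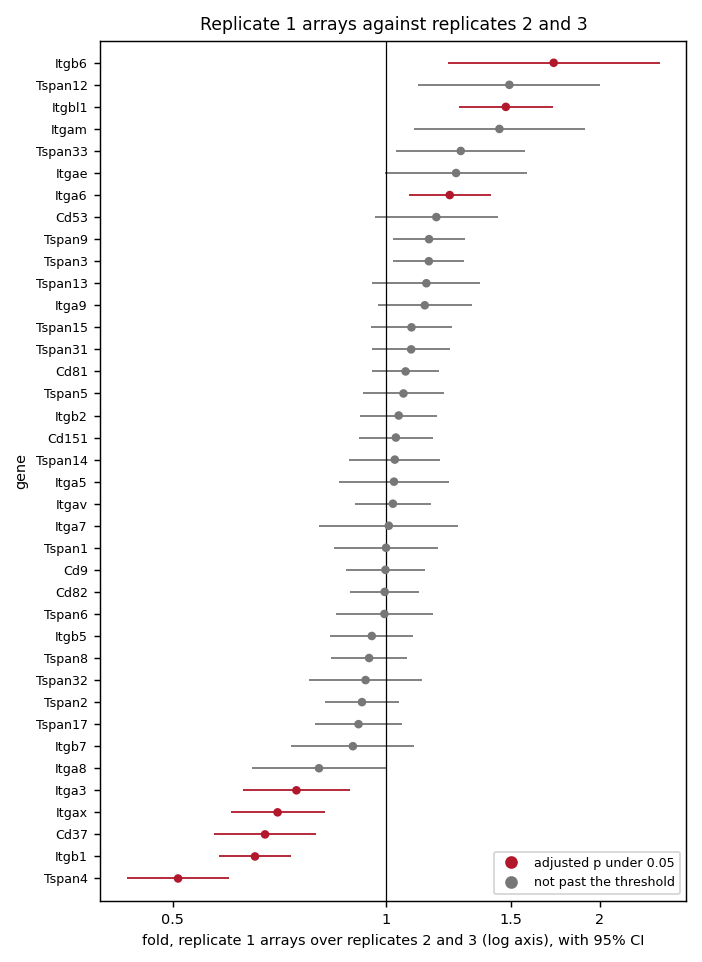
Fold of each of the 38 tested genes on the 3 replicate 1 arrays over the 6 arrays of replicates 2 and 3, on a log axis, with 95% confidence intervals from limma with group in the model. The 8 genes past the threshold are in red, from Tspan4 at 0.508 to Itgb6 at 1.72.

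In 9 of 38 members the replicate 1 arrays did not overlap with the others, where 23.1% of all genes had sets that did not overlap, and in 24 the sign was the same in all 3 groups, where it was for 58.7% of all genes. Itgam was among those not past the threshold, with a fold of 1.44 (1.09 to 1.91; limma adjusted p = 0.0662). Its gene and that of Itgax lie side by side on chromosome 7, as paralogues, and had log2 changes of 0.53 and -0.51. Cd151, which a single protein-coding gene separates from Tspan4 on the same chromosome, had a log2 change of 0.04 where Tspan4 had -0.98. The differences within these neighbour pairs were not tested. Cd9, Cd81, Cd82 and Cd151 had folds between 0.995 and 1.06 and none passed. Tspan12 had a fold of 1.49 (1.11 to 2.00; limma adjusted p = 0.0618) and likewise missed the threshold. So did Tspan33 at 1.27, Itgae at 1.25, Cd53 at 1.18, Tspan9 and Tspan3 at 1.15, Itgb7 at 0.897 and Itga8 at 0.804. Itga5, Itgav, Itgb2, Itgb5 and Tspan8 had folds between 0.946 and 1.04. A dimmer probe set of Tspan33 did pass, with a log2 change of 0.49 (limma adjusted p = 0.0265). One dimmer probe set of Tspan8 also passed, with -0.36 (limma adjusted p = 0.0163), while its other further probe sets did not.

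**Figure D5:**
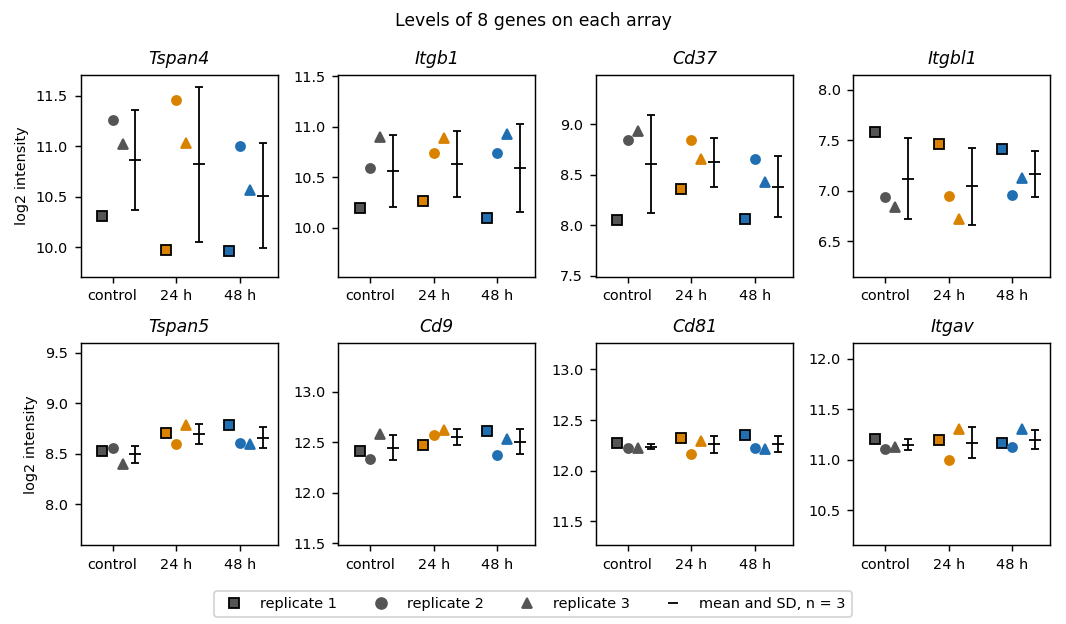
Log2 intensity of 8 genes on each array, by group, with the replicate number as the symbol and the mean and SD of the 3 arrays beside them; every panel spans 2 log2 units. The squares, replicate 1, are lowest in all groups for Tspan4, Itgb1 and Cd37 and highest for Itgbl1, while Cd9, Cd81 and Itgav vary little.

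Marker genes of several cell types differed between the same sets of arrays. Beside the counts that passed, 18.8% of all genes passed in this comparison, 8.57% higher and 10.2% lower. The summed signals are linear values before quantile normalisation, so the brightest genes weigh most in them. The macrophage list, 10 of 10 detected on all arrays, had summed signals of 15149 to 15694 units on the replicate 1 arrays and 16225 to 18690 on the others; 8 of its 10 genes were lower and 3 passed. The T and NK cell list had 1193 to 1471 against 1552 to 1681, with 8 of 8 tested genes lower, 2 of which passed. The 9 tested B cell genes had a median log2 change of -0.45, 7 were lower and 2 passed, and their summed signals of 2441 to 4084 overlapped the others' 3049 to 4882. The neutrophil list was higher in 5 of 5 tested genes, with a median log2 change of 0.84 and 0 past the threshold, at 9657 to 25923 against 6519 to 14009. The dendritic cell list went the other way from the macrophage list. Of its 4 tested genes 3 were higher, 1 of which passed, with a median log2 change of 0.20 where the macrophage list had -0.08. Its summed signals were 890.9 to 996.5 units on the replicate 1 arrays and 729 to 903.5 on the others. These values stand beside those of Itgax, Cd37 and Itgam, and their part in them was not tested.

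The alveolar type 2 list had 46578 to 49549 units on the replicate 1 arrays against 56980 to 66701, and the alveolar type 1 list 23545 to 25024 against 28104 to 31863. Of the former 0 of 6 genes passed, with a median log2 change of -0.12. Of the latter 2 of 5 passed, both lower, with a median of -0.24, where 18.8% of all genes passed. These stand beside the lower Itga3 and the higher Itga6 and Itgb6 of epithelium. The smooth muscle list was higher in 6 of 6 tested genes, 3 of which passed, at 9338 to 10424 against 6567 to 9527. The platelet list was higher in 7 of 7 tested genes, 5 of which passed, at 4388 to 6800 units against 2235 to 4610. The fibroblast list was higher in 6 of 7 genes, 2 of which passed, and the mesothelial list in 3 of 4, with 2 past the threshold. Cd9, which platelets carry, had a fold of 0.997 (0.876 to 1.14). Their part in the members' values was not tested either.

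Genes that act with integrins and tetraspanins were followed as lists. Of 32 genes of integrin activation and the adhesion plaque, 26 were tested and 0 passed in each comparison between groups, where 0% of all genes did, and the medians were -0.02 at 24 h and 0.0031 at 48 h. On the replicate 1 arrays 9 were higher and 17 lower, and 3 in each direction passed, where 8.57% of all genes passed higher and 10.2% lower. Those with the smallest p were Tns1, a tensin that links integrins to actin, with a log2 change of 0.53 (limma adjusted p = 0.00511), Ptk2b, a focal adhesion kinase of leukocytes, with -0.55 (0.0150), and Lims1, a partner of integrin-linked kinase, with 0.67 (0.0223).

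Of 31 integrin ligands 28 were tested and 0 passed in any comparison between groups. Their medians were -0.04 at 24 h, with 21 of 28 lower, and 0.06 at 48 h, with 18 of 28 higher. Of all 9281 genes, 4578 were lower at 24 h and 4437 higher at 48 h. The smallest p belonged to Thbs1, thrombospondin 1, with a log2 change of 0.55 at 48 h (limma adjusted p = 0.9998) and 0.64 from 24 h to 48 h. On the replicate 1 arrays 12 ligands were higher, of which 1 passed, and 16 lower, of which 2 passed. Of all genes 8.57% passed higher and 10.2% lower. The laminin chain Lamb3 fell by 0.38 (limma adjusted p = 0.0200), as did Lama5 by 0.30 (0.0244), while Edil3, a ligand of Itgav integrins that binds phosphatidylserine on vesicles, rose by 0.51 (0.0235).

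Of 15 tetraspanin partners 13 were tested, and 0 passed between groups, with medians of -0.05 at 24 h and -0.0098 at 48 h. On the replicate 1 arrays 7 were higher, of which 3 passed, and 6 lower, of which 2 passed. Of all genes 8.57% passed higher and 10.2% lower. Partners that passed included the hyaluronan receptor Cd44 with a log2 change of 0.49 (limma adjusted p = 0.00689) and Epcam, an epithelial adhesion protein, with -0.53 (0.0168). Ptgfrn, a direct partner of Cd9 and Cd81, passed with 0.37 (0.0235). Of 37 genes of vesicle uptake by clathrin, caveolae, heparan sulphate and scavenger receptors, 34 were tested and 0 passed between groups, with medians of -0.04 and -0.02. Sdc2, a syndecan, had the smallest p of that list at 48 h, with a log2 change of 0.44 (limma adjusted p = 0.9998). On the replicate 1 arrays 11 of these were higher, of which 2 passed, and 23 lower, of which 6 passed. Together 8 of 34 passed, where 18.8% of all genes did. The smallest p belonged to the basement membrane proteoglycan Hspg2 with -1.20 (limma adjusted p = 0.00364), the clathrin light chain Cltb with -0.48 (0.00751) and Sdc3 with -0.53 (0.0102).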

How the data were processed

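The 9 sample files hold, per the file headers, the intensity of 22690 probe sets beside a call and p-value for detection. The authors had scaled each array's linear intensity to a trimmed mean of 500.1 to 500.2 before deposit; how probes were summarised was not stated in the labels or headers. The deposited detection p-value was used only as a filter. The labels name a larger chip than the files hold. Array medians ran from 174 to 185.

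Intensities plus 16 were taken to log2 and quantile normalised; 64 control probe sets were left out, and 15886 probe sets for 9281 genes were tested, namely those detected (p under 0.05) throughout 1 or more groups. Names came from the platform annotation (20393 probe sets with 1 symbol, 691 with several, 1606 with none) and RefSeq GRCm38.p6, through Entrez identifiers, for 44 of 44 members. The tested probe set with the highest mean carried a gene; probe sets of 17 members could be compared, and their signs differed in 11 at 24 h, 6 at 48 h, 9 between the times and 6 between replicate sets. A fold is on the offset scale and understates changes of dim genes.

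Tests used limma 3.58.1 in R 4.3.3, two-sided, with a mean per group over all 9 arrays, Benjamini-Hochberg adjustment over all tested probe sets and a threshold of 0.05; scripts were tested on simulated data. The replicate comparison took the mean of replicates 2 and 3 from replicate 1 with group as a covariate. Same-numbered arrays of different groups correlated in their deviations from the group means by 0.275 to 0.651 over all 9 pairs, against -0.561 to 0.308 for the other 18, so the numbers were taken to pair the arrays. Members named with values were those highest and lowest by moderated t, 5 each, with a fixed set of well-known integrins and tetraspanins, and those called in the replicate comparison. From each pathway list up to 3 genes with the smallest p were named. Neighbouring genes, promoters and second probe sets were chosen after values were seen. Members, lists and comparisons were chosen with earlier results of these data known. The number of arrays limits the precision.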

Additional observations from a re-analysis of the deposited data

How the results depend on the processing

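In each comparison between groups 0 members passed under every alternative run: an offset of 1 or 64, no quantile normalisation, no filter, detection on all 9 arrays, the mean of a gene's probe sets, the series table with its own labels, each array left out, the 3 replicate 1 arrays left out, and the replicate block. Of these runs, the series table renames whole groups, so apart from 273 probe sets it repeats the same comparisons and adds no support. The replicate block gave 0, 0 and 0 calls, with 0, 1 and 1 members at an unadjusted p under 0.05, and changed no call. The members' median log2 change at 24 h lay so near 0 that it moved to -0.00430 without quantile normalisation. It was 0.00913 without a filter and 0.00831 without the replicate 1 arrays, and ran from -0.0315 to 0.0328 with an array left out. At 48 h it ran from -0.0651 to 0.0337. The cause of these shifts was not tested. With the series table the comparison named 24 h against control gave 0.00675. It sets the control files against the 48 h files, so it is the 48 h median of -0.0067 with the sign reversed, apart from the 273 probe sets. The count of 8 in the replicate comparison became 5 without a filter, where more probe sets are tested, and 0 with the series table, whose labels exchange the numbers 1 and 2 in 1 group and which gave a median of -0.00197. With an array left out it ran from 3 to 9 and the median from 0.00834 to 0.0833: it was 3 without control replicate 1, 4 without 24 h replicate 1, and 5 without control replicate 3, 24 h replicate 3 or 48 h replicate 2. Of 17 alternatives, Itgb1 and Tspan4 passed in 16, Cd37 in 15, Itgax and Itgbl1 in 14, and Itga3, Itga6 and Itgb6 in 8. Named members, which were not called between groups, changed sign in 48 of 396 values at 24 h, 41 of 432 at 48 h and 43 of 414 between the times. These values include the series table, under whose labels each name stands for another comparison.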

Other observations

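Probe sets of a gene disagreed for some members in the replicate comparison. The second probe set of Tspan5, dimmer than the first, had a log2 change of 1.00 on the replicate 1 arrays (limma adjusted p = 0.00261), where the first had 0.08. The count of 8 called members rests on the brightest tested probe set of each gene. Tspan5, Tspan8 and Tspan33, which passed only with a dimmer probe set, are not in it. Of the 3 tested probe sets of Itga3, those with log2 changes of -0.42 and -0.64 passed and the third, at -0.04, did not. Of the 38 members, 12 were carried by a probe set whose type (7 of type a, 3 of type s and 2 of type x) may also match other transcripts.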
